A study of Drosophila melanogaster with 24 samples.

Results

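The regions described here are the 1429 places in the genome of Kc167 cells where Su(Hw) and CP190 were found together without Mod(mdg4) and without CLAMP. Each is a Su(Hw) peak on arm 2L, 2R, 3L, 3R, 4 or X that shares at least 1 base with a CP190 peak and none with a Mod(mdg4) peak or a peak of either CLAMP antibody. They are 38.8% of the 3687 Su(Hw) peaks on these arms (95% Wilson interval 37.2 to 40.3). The CP190 peaks that hold them number 1401, which is 14.8% of the 9435 CP190 peaks. The overlap lists chose the regions, so this share is a description and nothing is read from it. The rule leaves out the 102 Su(Hw) peaks outside the 6 arms, and none of these met its overlap conditions. Few CP190 peaks lie there, since 9435 of 9454 are on the arms.

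Kc167 is a line of Drosophila melanogaster cells derived from embryos. All groups were this line: mock cells gave 2 ChIP libraries each for Su(Hw) (guinea pig serum), Mod(mdg4)2.2, CP190 and the CLAMP antibodies (rabbit), and 10 inputs. Cells nucleofected with double-stranded RNA (dsRNA) against Clamp (5 ug, kept 6 days) gave 2 libraries with the CLAMP antibody labelled clamp-abcam and 2 inputs. The labels do not say what the mock cells received. The authors deposited 1 peak list per antibody and treatment, made from pooled libraries. Differences could therefore not be tested against the spread between cultures, and no p-value is given. The sources used here do not state read numbers, so depth is unknown, and a missing peak means only that none passed the authors' threshold. Intervals cover counting error only. Peak lists hold no expression, so the cell type was not checked against marker genes.

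Su(Hw) is a zinc-finger protein that binds a long DNA motif, including the repeats in the gypsy retrotransposon. There it recruits Mod(mdg4)2.2 and CP190, which carry BTB domains through which such proteins associate, and the complex acts as an insulator that keeps an enhancer from a promoter beyond it. CP190 is also recruited by other DNA-binding insulator proteins, often near gene promoters. Su(Hw) is also known as a repressor of neuronal genes outside neurons and is needed for oogenesis. CLAMP binds GA repeats and has a part in dosage compensation of the X chromosome.

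The regions lay near the middle of the Su(Hw) list in enrichment and below the middle of the CP190 list, whose medians were 7.14 and 5.59. The fold enrichment that the authors' list gives for each peak, taken here as enrichment over control at the summit, had a median of 6.59 for Su(Hw) (95% order-statistic interval 6.33 to 6.88) and ranged from 2.05 to 23.7. The middle part of the list, between the quartiles, ran from 4.49 to 9.69. The CP190 peaks at the same regions had a median fold of 4.30 (4.17 to 4.46) and ranged from 1.78 to 23.5, with quartiles of 3.05 and 6.32. That median stood above 38.4% of all CP190 peaks on the arms. These values come from lists the rule used and are given without a test. Folds are the authors' and are ranked only within a list, never set as amounts of 1 protein against another.

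Set beside the other Su(Hw) peaks, the regions lay between 2 classes in Su(Hw) enrichment and at the low end in CP190 enrichment. The 789 Su(Hw) peaks with no CP190, Mod(mdg4) or CLAMP peak, called lone sites below, had a median Su(Hw) fold of 4.66. The 1057 peaks with CP190 and Mod(mdg4) but no CLAMP, called gypsy-type sites, had a median of 10.9. For CP190 the median fold was 11.9 at gypsy-type sites (11.6 to 12.3), against 4.30 at the regions lacking Mod(mdg4). The 134 Su(Hw) and CP190 peaks that lacked Mod(mdg4) and did carry CLAMP had medians of 4.97 for Su(Hw) and 5.71 for CP190. CP190 peaks were narrow at the regions, with a median width of 628 bases against 1269 at gypsy-type sites. Su(Hw) peak widths had medians of 482 and 582 bases.

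**Figure D1:**
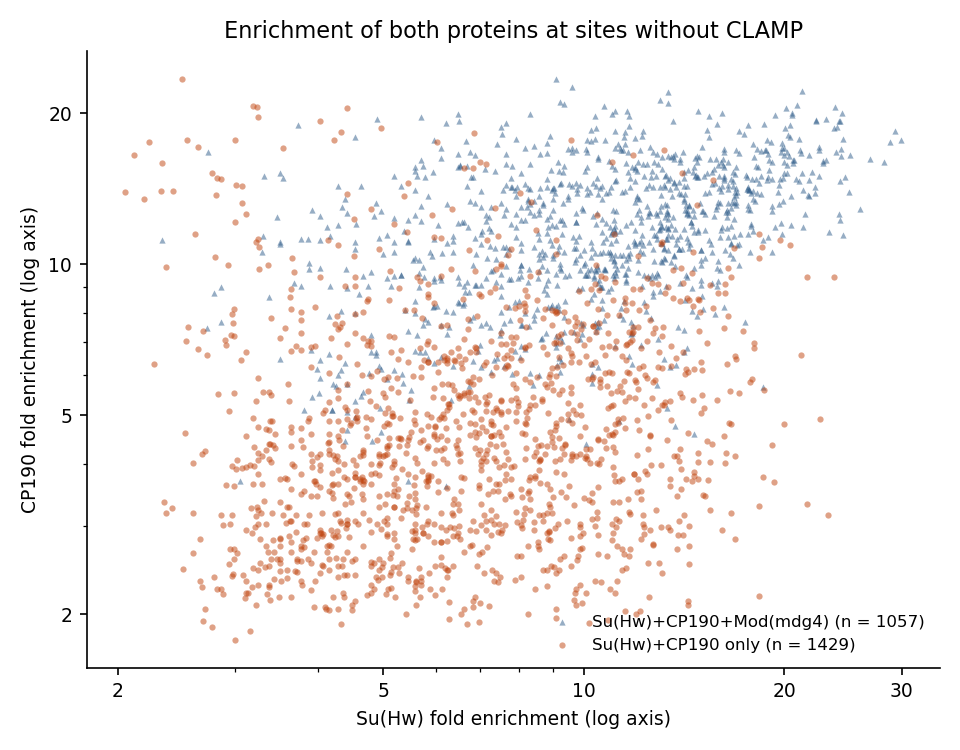
Fold enrichment of Su(Hw) (horizontal log axis) and CP190 (vertical log axis) at each Su(Hw) peak with CP190 and no CLAMP; each point is 1 peak, circles the 1429 regions lacking Mod(mdg4) and triangles the 1057 gypsy-type sites. The circles fill the lower part of the plot, with a median CP190 fold of 4.30, and the triangles the upper part, with a median of 11.9, while both spread widely along the Su(Hw) axis.

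Among all Su(Hw) and CP190 peaks without CLAMP, the share lacking Mod(mdg4) was lower where either protein was more enriched, over a wider range for CP190. When these 2486 peaks were ranked by CP190 fold into 10 classes of nearly equal size, 100% of the 249 weakest lacked Mod(mdg4), and so did 100% of the next 249. The share was 91.5% in class 4, 57.3% in class 6 (CP190 folds of 6.92 to 8.79) and 8.47% in class 9. Ranked by Su(Hw) fold, it went from 90.8% in the weakest class to 62.9% in class 5 and 18.1% in the strongest. The same peaks were next cut into 3 classes of CP190 fold (low, middle and high) and 3 of Su(Hw) fold. At low CP190 fold the share was 98.4%, 99.6% and 99.2% from low to high Su(Hw) fold. At middle CP190 fold it was 66.1%, 59.4% and 63.4%, again with no steady order along Su(Hw) fold. At high CP190 fold it was 41.8%, 9.38% and 3.54%. At gypsy-type sites the median fold of the Mod(mdg4) peak was 2.55 in the low class of CP190 fold (9 sites), 3.14 in the middle class and 4.99 in the high one. The rule used all 3 lists, so these shares are a description. Their depth is unknown, and the part of the Mod(mdg4) threshold in the shares was not tested. A CP190 peak can hold sites of both kinds, and its fold then counts for each.

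**Figure D2:**
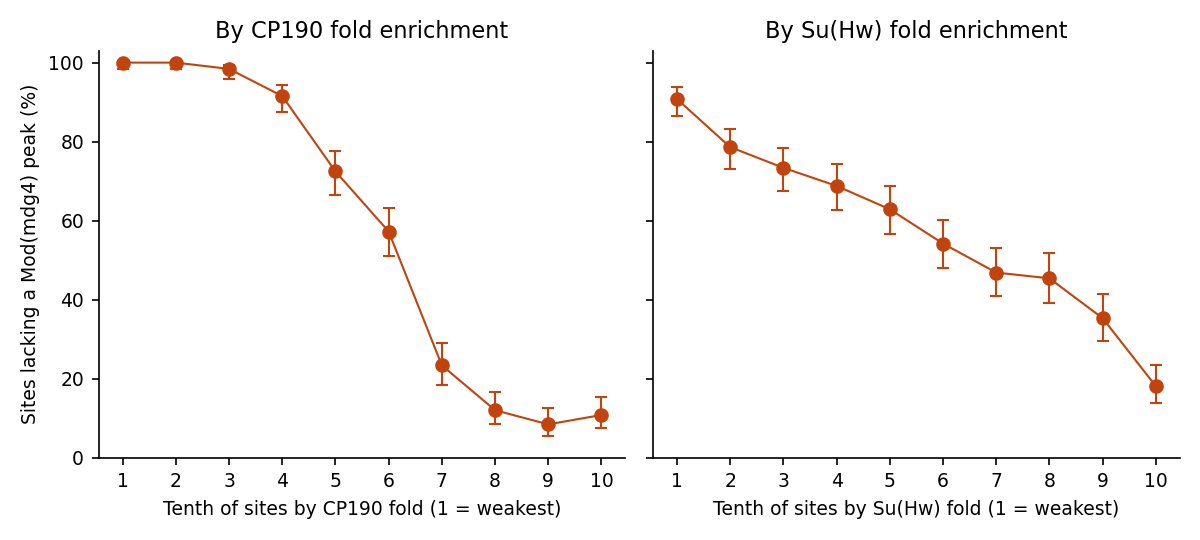
Share of Su(Hw) and CP190 peaks without CLAMP that lack a Mod(mdg4) peak (vertical axis, percent) in 10 classes from weakest to strongest, by CP190 fold (left) and Su(Hw) fold (right); bars are 95% Wilson intervals. The share is 100% in the weakest and 10.8% in the strongest CP190 class, and 90.8% and 18.1% in the weakest and strongest Su(Hw) class.

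Su(Hw) and CP190 folds went together only weakly among the regions. Across the 1429 regions Spearman's rho between the 2 folds was 0.18 and Pearson's r was 0.08, whereas across the gypsy-type sites rho was 0.43 and r was 0.44. These are correlations across sites of pooled libraries, given as descriptions, since sites are not replicates. The regions include 120 whose CP190 summit lay over 250 bases away, with median folds of 4.02 for Su(Hw) and 9.61 for CP190. The quartiles of CP190 fold also differed, 3.05 and 6.32 at the regions against 9.48 and 14.8 at gypsy-type sites. The part of either in the coefficients was not tested. Within each list the fold went with peak width, with a rho of 0.74 for Su(Hw) and 0.83 for CP190 at the regions.

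At most regions the summits of the 2 proteins coincided closely, much as at Su(Hw) peaks with CP190 in general. The median distance between the Su(Hw) and CP190 summits was 32 bases (30 to 35), and it was within 100 bases at 1210 regions (84.7%). Over all Su(Hw) peaks with CP190 the median was 30 bases, with 85.2% within 100 bases. Gypsy-type sites had a median of 26 bases, with 88.3% within 100. The CP190 summit fell inside the Su(Hw) peak at 1307 (91.5%), and the CP190 peak covered the whole Su(Hw) peak at 863 (60.4%). The 5 strongest in Su(Hw) among the regions whose summits fell on the same base lay inside Sema2b, which encodes a secreted axon guidance protein, inside flw and CG4168, and nearest to SkpC and Adgf-A, an adenosine deaminase gene. Their Su(Hw) folds were 16.6, 13.4, 11.7, 13.5 and 11.7, and their CP190 folds 5.58, 9.01, 3.40, 2.95 and 7.33. The other end of the range lay inside CG4297 on 2L, where the CP190 summit was 3476 bases away within a single CP190 peak of 4368 bases.

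The 120 regions whose CP190 summit lay over 250 bases away differed from the other 1309 in the enrichment of both proteins. They were 8.40% of the regions, beside 8.53% of all Su(Hw) peaks with CP190 and 7.38% of gypsy-type sites. Their median Su(Hw) fold was 4.02 (3.26 to 4.54) against 6.88 (6.54 to 7.14) at the closer ones. Their median CP190 fold was 9.61 (7.94 to 10.8) against 4.17 (4.05 to 4.30), and their CP190 peaks were wide, with a median of 1796 bases against 607. The higher CP190 median came from the 92 regions beyond 500 bases (10.4, 9.27 to 12.5), while the 28 between 250 and 500 bases had 4.03 (3.27 to 7.94). At 77 of the 120 (64.2%) the CP190 peak held another Su(Hw) peak too, against 23 of 1309 (1.76%). At these regions the CP190 summit lay outside the Su(Hw) peak in 92.5% of cases. A wide peak can reach a more distant summit, so distance and CP190 width are not separate measures.

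**Figure D3:**
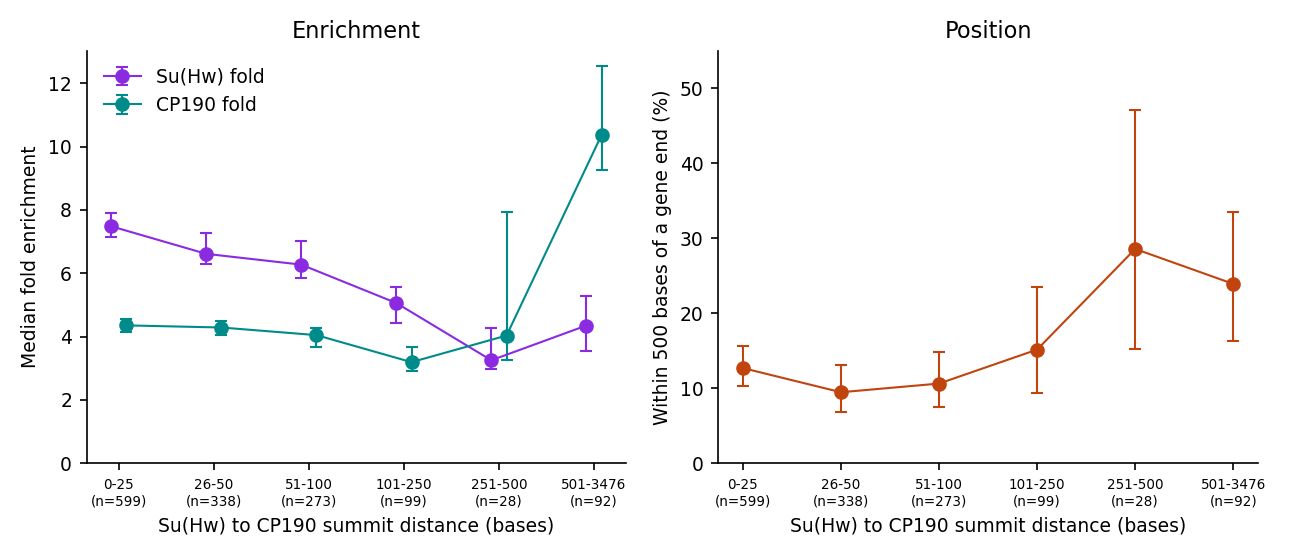
Regions grouped by the distance between the Su(Hw) and CP190 summits (horizontal axis, bases, with the number of regions). The left panel shows the median fold of each protein with 95% order-statistic intervals, and the right panel the percent of regions with the Su(Hw) summit within 500 bases of a gene end with 95% Wilson intervals; the median CP190 fold is 10.4 in the farthest class against 4.36 in the closest, and the Su(Hw) medians are 4.35 and 7.49.

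Of the 20 regions of strongest Su(Hw) enrichment, 12 lay inside a gene, beside 66.3% of all the regions and 63.5% of all Su(Hw) peaks. The strongest of all lay inside CG15894 on X between 6317088 and 6318211 (dm6), with a Su(Hw) fold of 23.7 and a CP190 fold of 9.45. The next lay in beat-IIIc on 2L between 17209864 and 17210528. The gene belongs to the beaten path family of immunoglobulin proteins of motor axons, and the region had folds of 23.3 for Su(Hw) and 3.16 for CP190. Its Su(Hw) summit was 22606 bases from the nearer gene end. Inside mub, which encodes an RNA-binding protein, the folds were 22.6 and 4.92 on 3L between 21874258 and 21874791. Fas2, the gene of the neural cell adhesion molecule fasciclin 2, held a region with folds of 21.2 and 6.59, placed 33097 bases from its nearer end. In brp, which encodes the scaffold of the presynaptic active zone, the Su(Hw) fold was 18.3 and the CP190 fold only 2.18.

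Other members of the 20 strongest lay near receptor genes and in genes of other roles. Proc-R, the gene of the proctolin receptor, held a region with folds of 20.4 for Su(Hw) and 10.9 for CP190. The region nearest to GluClalpha, the glutamate-gated chloride channel gene, had folds of 18.5 and 10.8 and lay 5322 bases from it. The one nearest to the ionotropic receptor gene Ir7a had folds of 18.3 and 3.29. Mmp2, a matrix metalloproteinase gene, held one with folds of 18.6 and 3.75, and cv-c, which encodes a RhoGAP, one with 18.3 and 11.5. The remaining 10 were inside lncRNA:CR32553, aus, CG33639 and Stacl, or nearest to Parp16, grsm, lncRNA:CR44530, lncRNA:CR46077, CG42581 and CG31735. Over all 20, the CP190 fold ranged from 2.18 to 11.5.

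The 10 regions of strongest CP190 enrichment had low Su(Hw) folds, from 2.49 to 6.84, all below the Su(Hw) list's median of 7.14. At all but CG31637 and lncRNA:TS6 the CP190 summit was 358 to 2138 bases away, so there the 2 folds were read at different places. The highest CP190 fold, 23.5, was in sim, the single-minded transcription factor gene of the midline, on 3R between 13077401 and 13077705, where the Su(Hw) fold was 2.49. The next were at CG8861 (20.7 for CP190 and 3.19 for Su(Hw)), at AkhR, the adipokinetic hormone receptor gene (20.6 and 3.23), and at CG31637 (20.5 and 4.41). In pb, a Hox gene, the folds were 18.7 and 4.97. At eag, a potassium channel gene, a region lay 71 bases from the gene end with folds of 18.3 and 6.84. The 10 were completed by regions near lncRNA:TS6 and Acsf2 and inside CG42268 and Eip74EF. Of these 10, the region near CG8861 was 147 bases from a Mod(mdg4) peak, the one near AkhR 422 and the one in sim 484, and the other 7 were over 5000 bases away.

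Eip74EF, which encodes an ecdysone-induced transcription factor, held the only CP190 peak with 3 of the regions. That CP190 peak, on 3L between 17594528 and 17599145, was 4618 bases wide with a fold of 17.7. The Su(Hw) folds of the 3 regions ran from 2.54 to 4.22, at summit distances of 2082, 1363 and 1145 bases. In all, 55 regions shared 27 CP190 peaks, so these are not independent of one another. Some regions also shared their CP190 peak with a gypsy-type site, so such a CP190 peak can count in both classes. At AkhR the gypsy-type site had a Su(Hw) fold of 23.8. Its summit lay 67 bases from that of CP190, against 912 bases for the region.

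The weakest Su(Hw) folds among the regions, 2.05 in plum, 2.12 in PVRAP, 2.19 near ro, 2.23 in SNF4Agamma and 2.27 in H2.0, stood beside CP190 folds of 13.9, 16.5, 13.5, 17.5 and 6.32. Here ro and H2.0 are homeobox genes. The summit distances of these 5 were 286 to 1155 bases.

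At the edges of the rule, the regions closest to a peak that would have removed them lay 68 bases from a peak of the clamp-abcam antibody at acj6, a POU-domain gene of olfactory neurons, 112 bases from one at Tomosyn, and 124 bases from a Mod(mdg4) peak near Ugt301D1. Just outside, Su(Hw) peaks at CG32264, CG15478 and Dop1R2 shared only 31, 42 and 54 bases with a left-out peak. The smallest overlaps with CP190 among the regions were 14, 72 and 86 bases, at tei, plum and CG31206. The lone sites nearest to CP190 missed it by 34 bases at Lerp, 45 at numb and 68 at robo3.

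Most regions lay farther from the left-out proteins than these edges. The rule removed every peak touching them, and the gaps are not given for other Su(Hw) peaks, so nothing is read from them. The median gap to the nearest peak was 29170 bases for Mod(mdg4), 18946 for the CLAMP antibody labelled clamp and 20289 for clamp-abcam. Within 1000 bases there was a Mod(mdg4) peak at 54 regions (3.78%) and a peak of any of the 3 lists at 113 (7.91%). Neighbouring regions were a median of 42094 bases apart, and the nearest other Su(Hw) peak of any kind lay at a median of 6797 bases.

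The regions were spread over the arms much as all Su(Hw) peaks were. They numbered 252 on 2L, 231 on 2R, 294 on 3L, 370 on 3R, 281 on X and 1 on the small arm 4. The X held 19.7% of them (17.7 to 21.8), against 20.1% of all Su(Hw) peaks and 17.6% of the arm length. As a share of each arm's Su(Hw) peaks they made up 36.9% on 3R and 41.2% on 2L, with the other large arms between. Few lay in the centromere-proximal parts of the arms, 7 (0.490%, 0.237 to 1.01), and the same held for gypsy-type sites with 11 (1.04%, 0.582 to 1.85) and lone sites with 13 (1.65%, 0.965 to 2.80). Most of the 125 centromere-proximal Su(Hw) peaks, 80, were among the 96 that lacked CP190 but had Mod(mdg4) or CLAMP.

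Most regions lay inside genes and away from gene ends, about as often inside as Su(Hw) peaks in general. The Su(Hw) summit was within 500 bases of either end of a gene at 182 regions (12.7%, 11.1 to 14.6), against 18.1% of all Su(Hw) peaks and 56.5% of all CP190 peaks. CP190 peaks without Su(Hw) were at gene ends in 69.9% of cases, gypsy-type sites in 30.2% (27.5 to 33.0) and lone sites in 7.22% (5.62 to 9.25). The median distance to a gene end was 3587 bases at the regions, 1393 at gypsy-type sites, 5553 at lone sites and 121 at CP190 peaks without Su(Hw). The summit fell inside a gene at 947 regions (66.3%), beside 63.5% of all Su(Hw) peaks and 54.5% of all CP190 peaks, while genes cover 69.5% of the arms. Of all regions 849 (59.4%) were inside a gene and over 500 bases from any gene end. The 120 regions with a distant CP190 summit were at gene ends in 25.0% of cases (18.1 to 33.4), and the other 1309 in 11.6% (9.99 to 13.5). Of the 182 regions at a gene end, 135 had a protein-coding gene there and 38 a long non-coding RNA (lncRNA) gene. Among the 17684 genes on the arms 13922 are protein-coding, and the list of lncRNA genes used below has 1944. The same split is not given for other Su(Hw) peaks, so nothing is read from it. The gene table gives no strand, exon or intron, so starts and stops of transcription cannot be told apart.

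**Figure D4:**
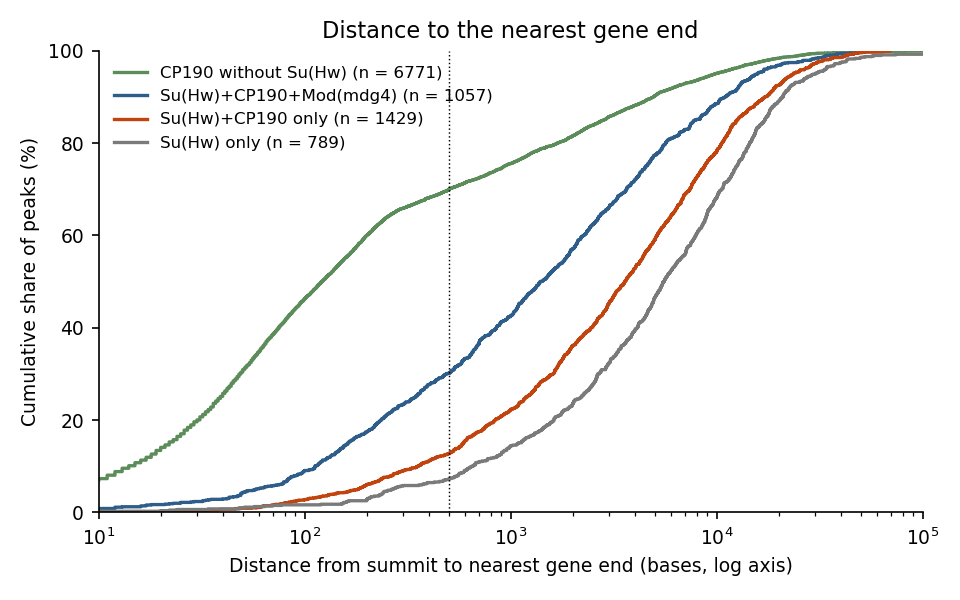
Cumulative share of peaks (vertical axis, percent) by distance from the summit to the nearest gene end (horizontal log axis, bases) for the 1429 regions and 3 other classes; the dotted line marks 500 bases. At that line the regions stand at 12.7%, between lone sites at 7.22% and gypsy-type sites at 30.2%, and CP190 peaks without Su(Hw) stand at 69.9%.

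The share at gene ends differed between classes of CP190 fold and of Su(Hw) fold. In 5 classes of CP190 fold over the regions and gypsy-type sites together, the regions were at gene ends in 9.64%, 8.86%, 17.8%, 22.7% and 31.2% of cases from the weakest to the strongest. Gypsy-type sites in classes 3, 4 and 5 gave 12.6%, 28.4% and 39.6%, and in each of these the intervals of regions and gypsy-type sites overlapped. In 5 classes of Su(Hw) fold the intervals did not overlap in any class, with 16.4% against 34.2% in the weakest and 8.27% against 23.1% in the strongest. At the regions the share at gene ends was thus lowest in the strongest class of Su(Hw) fold and highest in the strongest class of CP190 fold. Both folds come from lists the rule used, and some CP190 folds were read away from the Su(Hw) summit. The overlap of intervals is therefore a description, and the part of either fold in the share at gene ends was not tested.

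Seen from CP190, the regions accounted for a larger share of its peaks the farther these lay from genes' ends. Among 5335 CP190 peaks with a summit within 500 bases of a gene end, 196 (3.67%, 3.20 to 4.21) held one of the regions. The share was 22.2% in the next class, up to 2000 bases, 28.0% up to 5000, 35.8% up to 10000 and 38.2% (34.9 to 41.6) beyond. Gypsy-type sites did not show this order, with 5.90% at gene ends, 18.3% in the next class and 14.4% in the farthest. A Su(Hw) peak of any kind lay at 58.6% of the CP190 peaks beyond 10000 bases and at 11.3% of those at gene ends. The median CP190 fold was 6.46 at gene ends and 3.97 in the farthest class.

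Genes that held a region were mostly long. In all 742 of 17684 genes, 4.20%, had a region inside them or within 500 bases, and their median length was 22.8 kb against 1.71 kb for all genes. Of genes over 100 kb, 63.6% (56 of 88) held at least 1 region, and of genes of 1 to 2 kb 1.09%. Long genes offer more room, so each count over a list of genes below stands beside the number that genes of like length would give.

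**Figure D5:**
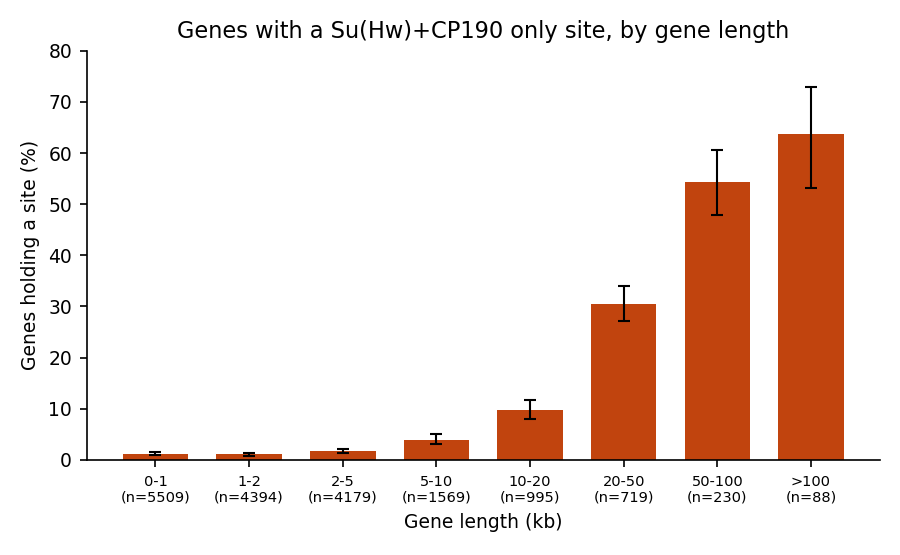
Percent of genes with at least 1 of the 1429 regions inside them or within 500 bases (vertical axis), by gene length in kb (horizontal axis, with the number of genes); bars are shares and whiskers 95% Wilson intervals. The share is near 1% for genes up to 2 kb and reaches 63.6% for genes over 100 kb.

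The gene bru3, which encodes an RNA-binding protein of the Bruno family, held 23 regions, the most of any gene. It spans 281 kb on 3L, from 13521907 to 13803400, and has 34 Su(Hw) peaks in all, of which 4 were gypsy-type and 7 lone sites. Of its 25 CP190 peaks 24 had a Su(Hw) peak and 21 held one of the regions. The gene was picked for its number of regions, so this share is a description. Neighbouring regions in bru3 were a median of 4.96 kb apart, and only 1 had its summit within 500 bases of a gene end. Their Su(Hw) folds ran from 2.86 to 13.1 with a median of 5.58, and their CP190 folds from 1.92 to 7.74 with a median of 3.40. The strongest in Su(Hw), between 13556903 and 13557404, had a CP190 fold of 2.42. The second strongest, between 13603923 and 13604904, had folds of 12.9 and 6.22 with the summits 1 base apart. The third, between 13686306 and 13686963, had folds of 12.9 and 5.12. The weakest, between 13650044 and 13650455, had 2.86 and 2.25.

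The next genes by count were tei with 9 regions, sick with 8, and CARPB and rdgA with 7 each. In rdgA, a diacylglycerol kinase gene of photoreceptors, Su(Hw) folds ran from 4.27 to 9.60 and CP190 folds from 2.93 to 8.52. CARPB had the widest range of the 5 genes, with Su(Hw) folds from 3.39 to 14.1, and its strongest region had a CP190 fold of 3.15. All 8 CP190 peaks in CARPB had a Su(Hw) peak, and 7 of them held one of the regions. In sick, 11 of 21 CP190 peaks had a Su(Hw) peak. Genes with 6 regions each, named after their values were seen, included the teneurin genes Ten-a and Ten-m, whose products match synaptic partners. Dys, the dystrophin gene, dpr8, Dpp10, SKIP and heph had 6 each too. That ranking was cut in order of gene symbol, so other genes with 6 may exist.

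Gene families of neuronal recognition and signalling held regions in more of their genes than the 4.20% of all genes, but they are long. Of 32 dpr and DIP genes, cell surface immunoglobulin proteins that pair between neurons, 12 held at least 1 region (37.5%, 22.9 to 54.7), where genes of like length would give 8.81. Strong ones were in dpr2 (folds of 14.0 for Su(Hw) and 9.83 for CP190), DIP-theta (13.8 and 6.51) and DIP-gamma (12.1 and 5.64, the strongest of 4). Of 22 beat and side genes, ligands and receptors of axon guidance, 10 held one against 7.67 for like length, with side at 11.1 and 5.24. Nicotinic acetylcholine receptor genes had 4 of 10 against 3.15: nAChRalpha6 with 4 regions, led by folds of 15.9 and 8.76, nAChRalpha3 with 3, nAChRalpha1 with 4 and nAChRalpha5 with 1.

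Ion channel and synaptic genes gave similar numbers. Of 34 ion channel genes 11 held a region against 7.81 for like length, among them Sh with 5 and eag with 4, both potassium channel genes, and para, the sodium channel gene, with 1 of Su(Hw) fold 3.76. Of 27 genes listed as synaptic 10 held one against 5.89, counting Rbp9, which encodes an RNA-binding protein. Beside brp they were Gad1, which encodes the enzyme that makes GABA (Su(Hw) fold 15.4), Vmat, the vesicular monoamine transporter gene (12.1), the neuroligin genes Nlg2, Nlg3 and Nlg4 (12.6, 8.81 and 11.5), Rbp9, nSyb (6.27), Syt1 (4.41) and Nrx-1 (2.89). At Rbp9 and Nrx-1 the CP190 folds were 16.0 and 7.05, with summits 771 and 945 bases away. In these 5 lists the counts exceeded those for like length by 0.849 to 4.11 genes a list, and no test was made of the excess. Lone sites exceeded theirs too, with 10 dpr and DIP genes against 6.63, 10 beat and side genes against 5.67, 10 ion channel genes against 5.67, 9 synaptic genes against 4.21 and 3 nicotinic receptor genes against 2.36. Gypsy-type sites were above theirs in 4 of the 5 lists, as with 8 synaptic genes against 4.75, and below in the beat and side genes with 5 against 5.56.

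In lists of mostly short genes the counts were small, as were the numbers for like length. Of 121 cuticular protein genes 1 held a region, Cpr50Ca, against 1.83 for like length, while 10 had a gypsy-type site against 2.75. Of 60 odorant receptor genes Or35a and Or45b did, 2 against 0.712, and of 60 gustatory receptor genes Gr28b did, 1 against 0.774. None of 66 ionotropic receptor genes did, against 1.82. Ribosomal protein genes had 1 of 92 (RpL28) against 1.12, and cytochrome P450 genes 1 of 87 (Cyp49a1) against 1.34. Odorant binding protein genes had 1 of 51 (Obp99b) against 0.697, and Jonah and trypsin genes 2 of 31 (thetaTry and Jon74E) against 0.365. None of 13 mucin genes did, against 0.926. Transfer RNA genes had 1 of 295 against 3.53, and microRNA genes 2 of 260 (mir-964 and mir-280) against 3.11. Among small nuclear RNA genes 4 of 32 had a region within 500 bases, where genes of like length would give 0.383. These were snRNA:U7 (Su(Hw) fold 6.24), snRNA:U4:38AB (4.80), and snRNA:U5:38ABa and snRNA:U2:38ABb, which shared 1 region (4.80). The regions of the 38AB genes both lay in sick on 2L, between 19810489 and 19812643, so these genes are not separate cases. At snRNA:U7 the CP190 summit was 480 bases away.

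Lists of developmental and housekeeping regulators gave counts near the numbers for like length, and lncRNA genes a count above theirs. Of 21 ecdysone genes 4 held regions against 5.99 for like length: br (Su(Hw) fold 16.2, CP190 fold 7.47), Eip63E, Eip74EF and Hr3. Of the 8 Hox genes 2 did against 2.59, pb and Antp (4.53 and 2.58). Of 21 segmentation genes none did, against 0.654. Cell cycle genes had 2 of 34 against 1.35, CycE (9.78 and 2.57) and E2f1 (4.73 and 2.18). Among 30 insulator and architectural protein genes only shep did, against 2.39 for like length, with 3 regions and a strongest Su(Hw) fold of 8.86. Shep is known to bind insulator proteins and to act against gypsy insulators in neurons. Of 1944 lncRNA genes 53 held one (2.73%) against 37.2 for like length, led by lncRNA:CR32553. Lone sites were above theirs too, with 28 lncRNA genes against 17.1, while gypsy-type sites had 42 against 46.6. No test was made of these differences. Of 503 antisense RNA genes 6 held a region (1.19%) against 7.74. A region counts for every gene it lies in or near, so that of mir-964 is also that of DIP-theta, and that of snRNA:U7 is also that of Eip63E.

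The list made after Clamp dsRNA was the only one the rule did not use, but it came from the same antibody as the clamp-abcam list that the rule did use, so the 2 are not separate evidence. It had peaks at 3 of the 1429 regions (0.210%, 0.0714 to 0.615). All Su(Hw) peaks had one at 2.90%, or 107 peaks, of which 75 were among the 96 peaks without CP190 but with Mod(mdg4) or CLAMP. Gypsy-type sites had 1 (0.0946%, 0.0167 to 0.534) and lone sites 7 (0.887%, 0.430 to 1.82), both with intervals that overlap that of the regions. Outside the centromere-proximal parts the shares were 0.211% of the regions (0.0718 to 0.618) and 0.701% of other Su(Hw) peaks (0.425 to 1.15), whose intervals overlap. The 3 regions all lay on 2L: in bru2 between 12392294 and 12392772, near lncRNA:CR44398 between 17945485 and 17946248, and near CG5681 between 17985568 and 17986293. Their folds in the dsRNA list were 2.70, 2.40 and 1.85, with the dsRNA summit 98, 234 and 369 bases from that of Su(Hw). Their Su(Hw) folds were 9.60, 14.4 and 11.6 and their CP190 folds 4.14, 2.09 and 6.43. The last 2 lay in a stretch of 1 Mb on 2L, picked out from earlier results, which held 62 of the 268 dsRNA peaks of that arm and 12 of the regions. A further 6 regions had a dsRNA peak within 1000 bases without overlap, 9 in all (0.630%).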

How the data were processed

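The submitters' processing notes name MACS2 2.1.0.20150731, Picard, SAMtools 1.2, Bowtie2 2.2.9, cutadapt 1.8.1 and build dm6; their settings were not used here. The authors deposited 6 narrowPeak lists whose row names carry the word pooled. The deposited fold, a ratio, is taken as MACS2's enrichment over control. The deposited score was 10 times the deposited -log10 q, rounded down, in every row of the 6 arms, and -log10 q served for ranking. The largest q-value in any list was 0.0484. Neither threshold nor read numbers were given in the sources used here.

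Overlap meant at least 1 shared base, and each region took the CP190 peak sharing most bases. Genes were matched to a RefSeq table (Release 6 plus ISO1 MT) that lists 17684 genes on the 6 arms without strand; a gene end is its first or last base. No genome sequence was used, so the planned motif search was not run. Shares have 95% Wilson intervals, and medians have 95% intervals from binomial order statistics. The number for genes of like length sums, over a list, the share of all genes holding a region in 8 classes of length. Centromere-proximal parts were 2L beyond 22 Mb, 2R before 5.5, 3L beyond 23, 3R before 4.5 and X beyond 21.5.

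The rule named the 20 regions with the largest Su(Hw) fold, the 10 with the largest CP190 fold, the 5 weakest in Su(Hw), the 5 with the closest and farthest summits, those with dsRNA peaks, the 5 genes with most regions, list genes and the regions at the edges. Regions and lists were chosen with earlier results of these data known. The like-length numbers, the classes of fold for gene ends and the comparison at 250 bases were added after the data were seen, and a pattern that took the gene Tbh for a cuticle gene was corrected. No test was made, since each list pools its libraries. The scripts were tested on simulated lists. Python 3.11.15, NumPy 2.4.6, pandas 2.3.3 and SciPy 1.17.1 were used.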

Additional observations from a re-analysis of the deposited data

How the results depend on the processing

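Of 57 alternative values for the number of regions, the median folds, the summit distance and the shares at gene ends and with dsRNA peaks, 39 stayed within the interval of the value reported (for the number, within 1.5 times). The regions' share of Su(Hw) peaks, 38.8%, was not among the 57. It stayed within its interval with either CLAMP antibody alone or without the centromere-proximal parts (39.2% to 39.9%). It left that interval in the other alternatives, at 41.8% with 50% of the Su(Hw) peak covered, 35.5% to 36.5% under the distance rules, and 24.3% and 1% with stricter lists. The number ranged from 1309 to 1540 except with stricter lists, where it was 447 when every list kept its 50% best-ranked peaks and 10 when it kept its 1000 best. Of these, 213 and 3 are among the 1429; the alternative also shortens the lists that remove regions. With the 50% best-ranked peaks the median folds were 10.5 for Su(Hw) and 8.63 for CP190, the median summit distance 26 bases, the share at gene ends 16.8% and the share with a dsRNA peak 0%. With the 1000 best-ranked, which leaves 10 regions, they were 12.9, 14.9, 824 bases, 30% and 0%. With 50% of the Su(Hw) peak covered the median CP190 fold was 4.53, and the summit distance was 29 bases for summits within 250 bases and also without CP190 summits beyond 250 bases, an alternative added after seeing the data. The share at gene ends was 6.02% at 200 bases and 22.2% at 1000 bases, and that with a dsRNA peak within 1000 bases 0.630%. Of the 10 regions strongest in CP190, 2 remained with summits within 250 bases, and of the 20 strongest in Su(Hw) all 20 did. The alternative motif window was not run. No paired analysis was possible because each list pools its libraries. Unknown depth limits every statement on a missing peak.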
